A study of Homo sapiens with 10 samples.

Results

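The cyclins and cyclin-dependent kinases (CDKs), the E2F factors with their pocket protein partners, and the DREAM and MuvB genes were examined as a set of 43 genes. The genes were taken by symbol from the 46427 rows of the expression table, and all 43 were found. RNA was measured in 10 libraries of 2 established human lung cancer cell lines, H460 and A549. The H460 libraries were 3 of untreated parental cells in 2D culture, 1 of cisplatin-resistant (CR) cells after 4 µM cisplatin, 2 of paclitaxel-resistant (PR) cells after 5 nM paclitaxel, 1 of doxorubicin-resistant (DR) cells after 0.5 µM doxorubicin, and 1 of tumor spheroid (TS) cells. Drug was given for 3 days and fresh medium for 3 more days, and the cells that attached after re-plating were taken as drug-resistant, so these are survivors of a single exposure and not lines grown under the drug. The A549 libraries were 1 of untreated 2D cells and 1 of TS cells. TS cells, which the labels name CTC cells, were grown unattached for at least 3 passages in a medium that held B27, bFGF and EGF in place of serum, so that medium and attachment changed together.

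As background, cyclins are the regulatory partners that switch CDKs on as the cell cycle proceeds. D-type cyclins with CDK4 or CDK6, and then E-type cyclins with CDK2, phosphorylate the retinoblastoma protein and its relatives, the pocket proteins, and so free the E2F factors to transcribe the genes of DNA replication. Cyclin A with CDK2 or CDK1, and cyclin B with CDK1, drive S phase and mitosis. In resting cells the MuvB core joins the pocket proteins RBL1 or RBL2 and a repressor E2F in the DREAM complex, which silences cell cycle genes. In cycling cells the same core instead joins B-MYB and FOXM1 and activates the genes of G2 and mitosis, in many of which it sits on a short promoter element named CHR.

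The promoter sequences are shown first because the MuvB core and the E2F factors read short elements in them. Promoter windows from RefSeq on GRCh38.p14, running from 250 bases before to 50 bases after an annotated transcript start, were matched by symbol for 34 of the 43 genes and gave 53 windows. Searched on both strands were the CHR element as TTTGAA or TTCGAA, the E2F element as TTCGCGC or TTGGCGC, and the CCAAT box as CCAAT. The CHR letters were in 17 of the 53 windows (32.1%) against 16.4% of all 35116 windows. The E2F letters were in 10 (18.9%) against 5.06%, and CCAAT in 22 (41.5%) against 34.6%. Some windows of a gene overlap, so the same match can count in more than 1 window. By gene, CHR letters were in 13 of 34 (38.2%) against 19.5% of all 27305 genes. By gene, E2F letters were in 9 (26.5%) against 6.1%, and CCAAT in 18 (52.9%) against 39.7%. The TTTGAA letters lay between 40 and 20 bases before the start in 5 of the 53 windows (9.43%), those of CCNB2, CDC25C, CKS1B, CKS2 and TFDP2, against 351 of all 35116 windows (1.0%). With TTCGAA counted too, a window of CDC25B joined them (6 of 53, 11.3%, against 367 of all windows, 1.05%). This narrow range was chosen after the matches had been seen. A match is a run of letters and not a measured binding site. Other forms of these elements were not searched, so a window without a match may still hold one.

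The last 120 bases before the start are printed for CCNB2, CDC25C, CKS1B and CKS2, which were picked because they were also lower in drug-resistant cells. TFDP2 and CDC25B, which were not called there, held CHR letters in the same range and are not printed. Capitals mark matches to the CHR, E2F or CCAAT letters on either strand, so that TTCAAA and ATTGG are reverse matches.
CCNB2, chr15:59105026-59105145, plus strand: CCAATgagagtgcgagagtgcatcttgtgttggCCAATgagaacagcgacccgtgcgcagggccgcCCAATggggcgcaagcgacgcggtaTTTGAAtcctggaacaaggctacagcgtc
CDC25C, chr5:138331805-138331924, minus strand: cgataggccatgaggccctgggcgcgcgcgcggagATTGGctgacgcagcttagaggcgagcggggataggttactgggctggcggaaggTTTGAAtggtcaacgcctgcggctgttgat
CKS1B, chr1:154974561-154974680, plus strand: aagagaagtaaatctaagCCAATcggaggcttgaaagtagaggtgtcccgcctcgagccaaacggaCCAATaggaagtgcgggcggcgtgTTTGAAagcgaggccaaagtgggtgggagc
CKS2, chr9:89311075-89311194, plus strand: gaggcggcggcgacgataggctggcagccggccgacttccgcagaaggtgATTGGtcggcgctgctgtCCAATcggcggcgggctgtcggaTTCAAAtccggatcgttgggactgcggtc
In CCNB2 and CKS2 the CHR letters covered bases -29 to -24 from the start, and in CDC25C and CKS1B bases -30 to -25. CCAAT matches stood upstream of them in all 4, 3 in the printed stretch of CCNB2, 2 each in CKS1B and CKS2 and 1 in CDC25C. The CDC25C start is 1 of 4 that these windows give for the gene and lies inside its span, which is chr5:138285265-138338355.

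The same stretch is printed for 4 of the genes with E2F letters within 50 bases of the start, and for CCNG2, the gene with a matched window that was higher in drug-resistant cells. The 4 were all lower there. E2F3, which was not called there, and CDK1, which was lower, also held E2F letters in that range and are not printed.
E2F1, chr20:33686386-33686505, minus strand: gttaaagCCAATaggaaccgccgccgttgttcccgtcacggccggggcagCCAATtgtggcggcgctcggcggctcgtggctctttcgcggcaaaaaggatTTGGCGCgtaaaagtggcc
E2F2, chr1:23531234-23531353, minus strand: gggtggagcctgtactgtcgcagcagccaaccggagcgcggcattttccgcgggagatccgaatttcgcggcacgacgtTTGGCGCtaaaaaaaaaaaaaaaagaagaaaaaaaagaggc
RBL1, chr20:37095998-37096117, minus strand: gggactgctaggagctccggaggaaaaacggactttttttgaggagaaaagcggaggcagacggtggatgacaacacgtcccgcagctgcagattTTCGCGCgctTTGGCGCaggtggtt
CDC25A, chr3:48188418-48188537, minus strand: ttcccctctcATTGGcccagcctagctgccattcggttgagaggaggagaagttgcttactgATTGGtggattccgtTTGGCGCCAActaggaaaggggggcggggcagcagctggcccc
CCNG2, chr4:77157087-77157206, plus strand: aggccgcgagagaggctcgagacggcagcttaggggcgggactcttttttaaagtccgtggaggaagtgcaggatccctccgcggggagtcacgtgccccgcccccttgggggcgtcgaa
E2F1 and E2F2 held 1 E2F match each, RBL1 held 2, and CDC25A held 2 that overlap on opposite strands. CCNG2 held none of the letters searched. Grouped by the test described below, the 22 genes with a window that were lower in drug-resistant cells had CHR letters in 8, E2F letters in 8 and CCAAT in 12. The 11 genes with a window that were not called had them in 5, 1 and 6. The groups are small, and several genes have more than 1 window, so these counts are a description of the letters searched. They do not show which genes lack an element.

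**Figure D1:**
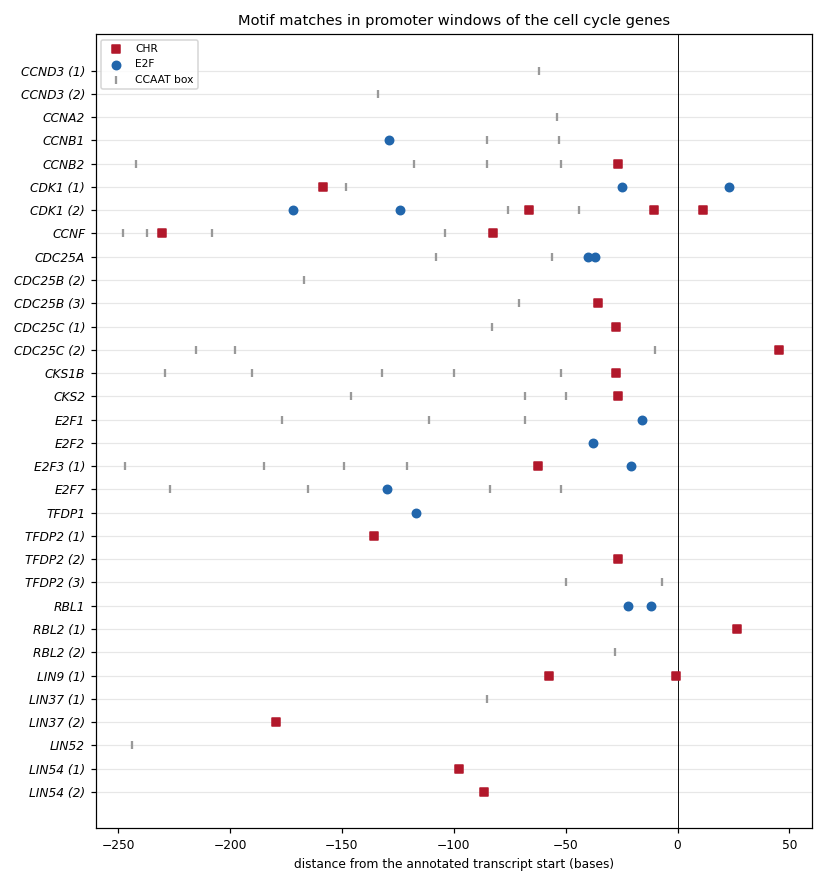
Each row is a promoter window of a gene with at least 1 match (the number in parentheses is the window), and the horizontal axis is the distance in bases from the annotated transcript start, with the centre of each CHR, E2F and CCAAT match as a square, a circle and a tick. CHR squares of CCNB2, CDC25B, CDC25C, CKS1B, CKS2 and TFDP2 lie between 40 and 20 bases before the start. E2F circles of E2F1, E2F2, E2F3, RBL1, CDC25A and the first window of CDK1 fall within 50 bases of it.

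The libraries held between 59499787 and 89541774 counts on genes, and the 10 most abundant genes took between 7.57% and 13.5% of them. A count was recorded for 21036 to 21603 genes in the parental libraries and for 22720 to 26745 in the drug-resistant ones. The labels do not say that replicates came from separate cultures, so p-values measure the spread between these libraries, which may be technical. Parental libraries 1 and 3, PR library 1 and the H460 TS and A549 libraries carry one form of library name and the others another form. The name of PR library 1 alone ends in exp, and its meaning is not given. Titles of the parental and PR libraries also carry replicate numbers. The paper names HiSeq sequencers of different models, and the labels do not say which library was run on which. Among epithelial markers KRT8, KRT18 and KRT19 were expressed in H460 cells and EPCAM and CDH1 were below an FPKM of 0.5. The summed leukocyte markers were at 15.0 to 16.9 FPKM in parental and 30.9 to 58.0 in drug-resistant libraries, carried by CD68, with PTPRC, CD3E and ITGAM below 0.5. Summed fibroblast markers were at 1.29 to 6.00 and 6.05 to 19.6 FPKM, and endothelial markers were below 0.5 each. In H460 TS cells the fibroblast sum was 28.3 FPKM, mostly LUM at 26.6, and the leukocyte sum was 21.2. In the A549 libraries the fibroblast sum was 1.64 to 1.88 FPKM. The leukocyte sum there was 20.3 to 70.2, with CD68 at 19.6 in 2D and 69.8 in TS cells. The part of these differences in the results was not tested.

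Drug-resistant H460 cells were compared with parental cells to find which parts of the cell cycle machinery had changed among the survivors. In the 4 drug-resistant libraries against the 3 parental ones, 28 of the 43 genes were lower, 3 were higher and 12 were not called. Lower were the cyclins A and B, CDK1, CDK2 and CDK4, 2 of 3 activator E2Fs, and B-MYB and FOXM1, and higher were the cyclins CCND1, CCND2 and CCNG2. Over all 19902 genes tested, 14.3% were lower and 18.2% higher (32.5% called), so the share of these genes that was lower, 28 of 43, lay above the background and the share that was higher below it. The test was edgeR's quasi-likelihood test on the counts with TMM scaling and Benjamini-Hochberg adjustment over all genes, and a gene was called at an adjusted p under 0.05. All 43 genes passed the filter of 10 counts in at least 2 libraries, but CCND2 did so only through its drug-resistant libraries, where it was the higher, so its call is a description and CCND1 and CCNG2 are the tested increases. With upper-quartile scaling the split of called genes moved from 3624 higher and 2841 lower to 4458 and 2007, and that of the 43 genes to 3 higher and 24 lower. The median log2 fold change of the 43 genes was -1.05, beside 0.11 for all genes (0.29 with upper-quartile scaling). In bulk RNA, fewer cells in a cell cycle phase and less RNA in each such cell cannot be told apart. Levels are given as FPKM, fragments scaled to transcript length and library size, which allow genes to be compared with each other.

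Without any test, 25 of the 43 genes had every drug-resistant library below every parental one, beside 12.8% of all genes, and 5 had every one above, beside 25.9%. The other 13 overlapped. The 5 above were CCND1, CCND2, CCNG2, E2F6 and LIN37.

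**Figure D2:**
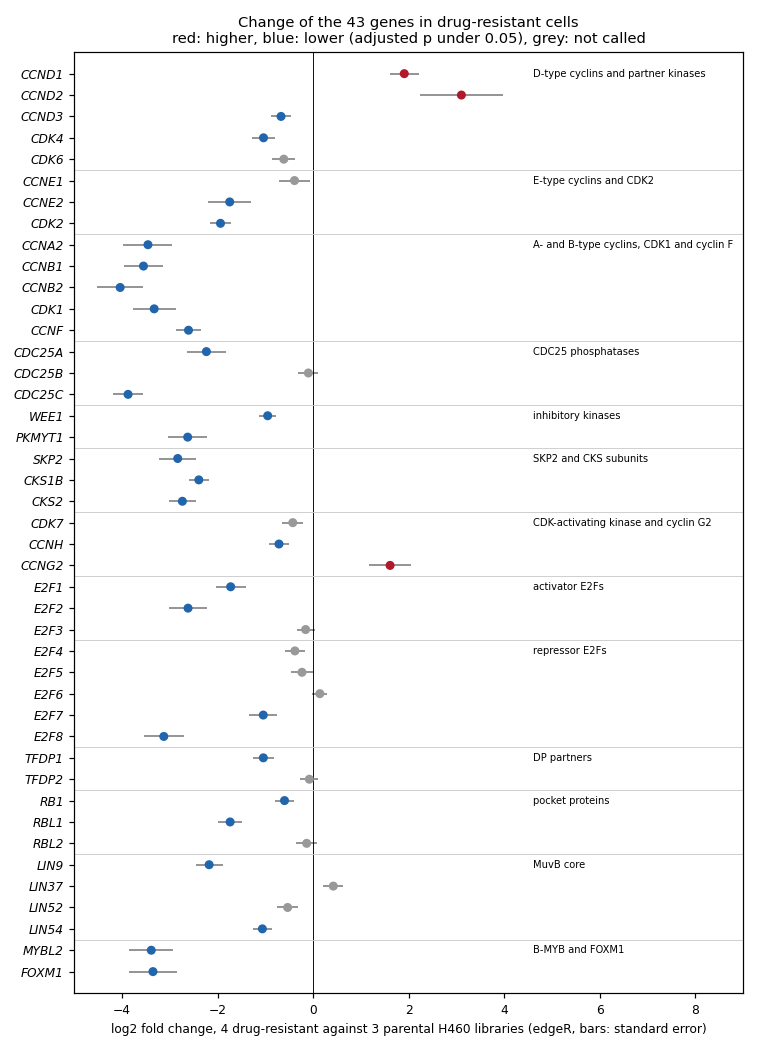
Each point is a gene, grouped by role, with its log2 fold change in 4 drug-resistant against 3 parental H460 libraries on the horizontal axis and a bar for the standard error. Red points (3 genes) were higher, blue points (28) lower and grey points (12) not called, and CCNB2, CDC25C and CCNB1 sit farthest left.

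Of the D-type cyclins, CCND1 (cyclin D1), which with CDK4 or CDK6 opens the way out of G1, was at 33.0, 17.3 and 17.1 FPKM in the parental libraries and at 106 in CR, 72.0 and 84.4 in PR and 103 in DR cells. Every drug-resistant library stood above every parental one, and the log2 fold change was 1.91 ± 0.31 (SE, adjusted p = 0.00165 by edgeR). CCND2 (cyclin D2) was close to absent throughout. Its FPKM was 0.0310, 0.0131 and 0 in parental libraries and 0.0468 in CR, 0.193 and 0.163 in PR and 0.174 in DR cells, from 17, 7 and 0 counts against 28, 106, 71 and 114. The fitted log2 fold change of 3.10 ± 0.88 (SE) concerns very low levels and is given as a description, since the gene passed the filter on counts only through the group where it was high. Without parental library 2 it was not called. CCND3 (cyclin D3) went the other way, from 28.2, 20.1 and 15.6 FPKM to 14.4 in CR, 12.8 and 12.9 in PR and 16.0 in DR cells. Its fall by 0.67 on the log2 scale had an adjusted p of 0.0376 by edgeR, its groups overlapped, and it kept its call in 5 of 16 other settings, so it is a weak call.

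Neither kinase partner of the D-type cyclins was higher. CDK4 was at 107, 80.6 and 48.1 FPKM in parental libraries and at 37.0 in CR, 46.5 and 45.2 in PR and 37.6 in DR cells. The groups did not overlap, with parental library 3 just above the drug-resistant range, and the log2 fold change was -1.04 ± 0.24 (SE, adjusted p = 0.00882 by edgeR). CDK6 was at 7.54, 5.14 and 5.01 FPKM in parental libraries and 4.02 in CR, 5.65 and 3.13 in PR and 3.98 in DR cells, and was not called (-0.62 ± 0.24 (SE, adjusted p = 0.0729 by edgeR)).

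The E-type cyclins and CDK2, which act at the start of S phase, were mixed. CDK2 was at 26.2, 31.2 and 15.7 FPKM in parental and 6.99 in CR, 8.14 and 5.95 in PR and 6.26 in DR cells, a clear separation with a log2 fold change of -1.94 ± 0.23 (SE, adjusted p = 0.00041 by edgeR). CCNE2 (cyclin E2) was at 3.38, 2.96 and 1.53 FPKM in parental libraries and 1.28 in CR, 1.01 and 0.330 in PR and 0.703 in DR cells, with PR library 2 the lowest. Its log2 fold change was -1.75 ± 0.45 (SE, adjusted p = 0.0149 by edgeR), and without parental library 1 it was not called (adjusted p = 0.0548 by edgeR). CCNE1 (cyclin E1) was at 8.01, 4.39 and 3.32 and 5.24 in CR, 3.56 and 3.54 in PR and 4.91 in DR cells FPKM, with overlapping groups and no call (-0.39 ± 0.32 (SE, adjusted p = 0.361 by edgeR)).

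The A- and B-type cyclins, CDK1 and CCNF fell, all 5 of them. CCNB1 (cyclin B1), the main partner of CDK1 in mitosis, was at 157, 152 and 85.8 FPKM in the parental libraries and at 7.06 in CR, 24.3 and 8.49 in PR and 9.39 in DR cells. The mean fell from 132 ± 39.8 FPKM (SD, n = 3) to 12.3 ± 8.03 (SD, n = 4), a log2 fold change of -3.56 ± 0.41 (SE, adjusted p = 0.000385 by edgeR). CCNB2 (cyclin B2), whose promoter stretch is printed above, went from 37.5, 48.4 and 34.5 FPKM to 1.69 in CR, 6.03 and 1.32 in PR and 1.64 in DR cells. Its log2 fold change, -4.04 ± 0.48 (SE, adjusted p = 0.000436 by edgeR), was the lowest of the 43 genes. CCNA2 (cyclin A2), the cyclin of S phase and G2, was at 30.5, 29.8 and 16.8 FPKM in parental and 1.82 in CR, 5.70 and 0.967 in PR and 1.70 in DR cells, with a log2 fold change of -3.46 ± 0.51 (SE, adjusted p = 0.00114 by edgeR). PR library 1 kept the highest level of CCNA2, CCNB1 and CCNB2 among the drug-resistant libraries, yet stayed below every parental library.

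CDK1, the mitotic kinase, was at 81.3, 120.1 and 49.8 FPKM in parental libraries and 7.84 in CR, 16.0 and 3.54 in PR and 8.35 in DR cells. The log2 fold change was -3.33 ± 0.45 (SE, adjusted p = 0.000705 by edgeR), and PR library 2 was lowest. CCNF (cyclin F), a substrate receptor of an SCF ubiquitin ligase that shares its name with the cyclins but activates no CDK, went from 10.6, 8.27 and 8.55 FPKM to 1.29 in CR, 2.64 and 1.5 in PR and 1.17 in DR cells. The log2 fold change was -2.61 ± 0.27 (SE, adjusted p = 0.000279 by edgeR).

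The CDC25 phosphatases, which remove the inhibitory phosphates from CDKs, split by member. CDC25C, which acts on CDK1 at entry into mitosis, was at 5.40, 12.1 and 7.11 FPKM in parental libraries and 0.366 in CR, 0.726 and 0.583 in PR and 0.584 in DR cells. Every drug-resistant library was below an FPKM of 1, and the log2 fold change was -3.88 ± 0.31 (SE, adjusted p = 0.000122 by edgeR). CDC25A, which acts earlier, on CDK2, was at 15.1, 9.27 and 4.26 FPKM in parental and 2.57 in CR, 3.01 and 1.13 in PR and 1.98 in DR cells. The parental libraries were spread widely, and the log2 fold change was -2.24 ± 0.41 (SE, adjusted p = 0.00342 by edgeR). CDC25B, by contrast, was at 56.6, 39.5 and 53.6 FPKM and 39.0 in CR, 52.7 and 61.0 in PR and 52.0 in DR cells, with overlapping groups and a log2 fold change of -0.10 ± 0.21 (SE, adjusted p = 0.735 by edgeR).

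The kinases that place those inhibitory phosphates fell too. PKMYT1 was at 25.4, 18.7 and 17.3 FPKM in parental libraries and 3.67 in CR, 6.23 and 1.36 in PR and 3.04 in DR cells, with PR library 2 lowest and a log2 fold change of -2.63 ± 0.41 (SE, adjusted p = 0.00143 by edgeR). WEE1 was at 6.61, 7.01 and 6.48 FPKM in parental libraries, which were close together, and at 3.77 in CR, 4.74 and 3.79 in PR and 2.89 in DR cells. Its log2 fold change was smaller, -0.95 ± 0.18 (SE, adjusted p = 0.00391 by edgeR).

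SKP2 and the CKS subunits work together: SKP2 is the substrate receptor that marks the CDK inhibitor p27 for destruction, CKS1B is its accessory factor, and CKS1B and CKS2 bind CDKs directly. All 3 fell. SKP2 was at 38.1, 30.1 and 15.8 FPKM in parental libraries and 3.47 in CR, 7.09 and 2.38 in PR and 3.31 in DR cells, a log2 fold change of -2.84 ± 0.39 (SE, adjusted p = 0.000757 by edgeR). CKS1B, among the most abundant of the 43 genes, went from 168, 194 and 118 FPKM to 27.8 in CR, 42.1 and 30.8 in PR and 31.8 in DR cells. The libraries of the groups were far apart, with a log2 fold change of -2.40 ± 0.20 (SE, adjusted p = 0.000161 by edgeR). CKS2 was at 172, 217 and 99.7 FPKM in parental and 16.8 in CR, 38.1 and 24.4 in PR and 26.8 in DR cells, with a log2 fold change of -2.74 ± 0.29 (SE, adjusted p = 0.000305 by edgeR). How reads shared with processed copies of such short genes were counted is not given in the sources used here.

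CDK7 and cyclin H, which are subunits of the CDK-activating kinase, changed by less. CDK7 was at 41.1, 41.3 and 21.9 FPKM and 26.8 in CR, 24.7 and 31.3 in PR and 29.5 in DR cells, overlapping and not called (-0.43 ± 0.22 (SE, adjusted p = 0.152 by edgeR)). CCNH (cyclin H) was at 33.1, 47.6 and 22.3 FPKM and 23.0 in CR, 19.5 and 20.3 in PR and 24.8 in DR cells. Parental library 3 lay inside the drug-resistant range, and the log2 fold change was -0.72 ± 0.20 (SE, adjusted p = 0.022 by edgeR), a call kept in 11 of 16 other settings. CCNG2 (cyclin G2), a cyclin that is linked to cell cycle arrest and is not a CDK activator, was at 0.251, 1.34 and 0.836 FPKM in parental libraries and 2.55 in CR, 3.31 and 3.43 in PR and 2.01 in DR cells. All 4 drug-resistant libraries were above all 3 parental ones, and the log2 fold change was 1.61 ± 0.44 (SE, adjusted p = 0.0202 by edgeR). Without parental library 3 it was not called (adjusted p = 0.0515 by edgeR).

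**Figure D3:**
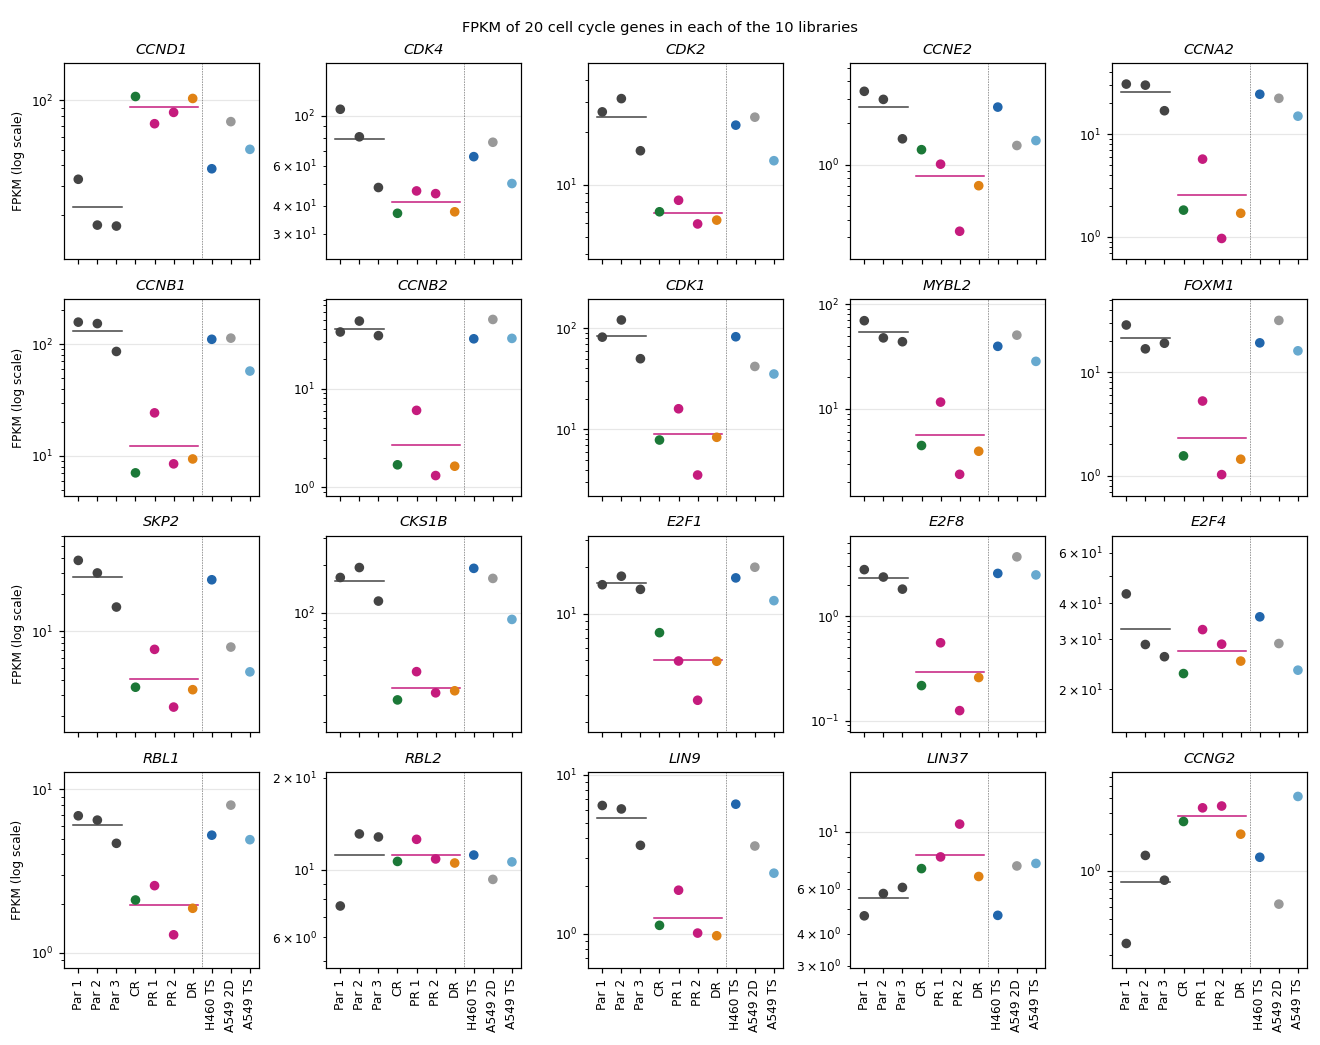
FPKM on a log scale of 20 of the 43 genes, 1 panel a gene, with a point for each of the 10 libraries (Par, parental) and lines at the means of the 3 parental and 4 drug-resistant libraries. CCND1 and CCNG2 rise and the mitotic genes fall in the drug-resistant libraries, while the H460 TS points lie at parental levels in most panels.

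Of the activator E2Fs, which drive the genes of DNA replication, E2F1 and E2F2 fell and E2F3 was not called. E2F1 was at 15.4, 17.4 and 14.4 FPKM in parental libraries and 7.55 in CR, 4.96 and 2.77 in PR and 4.94 in DR cells, with CR highest and PR library 2 lowest of the drug-resistant ones. Its log2 fold change was -1.73 ± 0.31 (SE, adjusted p = 0.00313 by edgeR). E2F2 was at 4.61, 3.71 and 3.13 FPKM in parental and 0.851 in CR, 1.10 and 0.276 in PR and 0.456 in DR cells, a log2 fold change of -2.62 ± 0.40 (SE, adjusted p = 0.00139 by edgeR). E2F3 was at 9.12, 7.02 and 6.46 and 6.47 in CR, 9.22 and 8.21 in PR and 6.59 in DR cells FPKM, with overlapping groups (-0.16 ± 0.19 (SE, adjusted p = 0.534 by edgeR)).

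Of the 5 repressor E2Fs 2 fell. E2F8, an atypical E2F that binds DNA without a DP partner and acts on E2F targets late in the cycle, was at 2.78, 2.36 and 1.81 FPKM in parental libraries and 0.216 in CR, 0.555 and 0.124 in PR and 0.258 in DR cells. The log2 fold change was -3.13 ± 0.42 (SE, adjusted p = 0.000682 by edgeR). Its relative E2F7 was at 5.06, 3.74 and 3.40 FPKM in parental libraries and 1.43 in CR, 3.16 and 2.92 in PR and 1.31 in DR cells, and here both PR libraries stood above CR and DR. The log2 fold change was -1.05 ± 0.29 (SE, adjusted p = 0.0218 by edgeR), called in 10 of 16 other settings. E2F4, E2F5 and E2F6, which bind with a DP partner, were not called. E2F4, the E2F most often found in the DREAM complex and here the most abundant E2F, was at 43.2, 28.7 and 26.03 FPKM and 22.7 in CR, 32.4 and 28.8 in PR and 25.1 in DR cells (-0.38 ± 0.21 (SE, adjusted p = 0.175 by edgeR)). The log2 fold change of E2F5 was -0.24 (adjusted p = 0.459 by edgeR) and that of E2F6 was 0.14 (adjusted p = 0.512 by edgeR). E2F6 was at 7.13 to 7.56 FPKM in parental and 7.56 to 10.6 in drug-resistant libraries, with CR level with the highest parental library.

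The DP proteins pair with E2Fs to bind DNA. TFDP1 was at 57.8, 41.0 and 34.6 FPKM in parental libraries and 24.2 in CR, 28.5 and 19.9 in PR and 21.2 in DR cells, with no overlap and a log2 fold change of -1.04 ± 0.22 (SE, adjusted p = 0.00637 by edgeR). TFDP2 was much less abundant, at 2.19, 2.97 and 2.96 and 2.73 in CR, 2.49 and 2.82 in PR and 2.98 in DR cells FPKM, and was not called (-0.08 ± 0.19 (SE, adjusted p = 0.763 by edgeR)).

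Among the pocket proteins RBL1 (p107), itself an E2F target, fell most. It was at 6.89, 6.48 and 4.67 FPKM in parental libraries and 2.103 in CR, 2.57 and 1.29 in PR and 1.87 in DR cells, a log2 fold change of -1.74 ± 0.25 (SE, adjusted p = 0.00105 by edgeR). RB1, the retinoblastoma gene, was at 10.2, 9.05 and 7.61 FPKM and 5.66 in CR, 8.10 and 5.14 in PR and 6.73 in DR cells. PR library 1 lay inside the parental range, and the fall by 0.60 on the log2 scale (adjusted p = 0.0425 by edgeR) kept its call in 4 of 16 other settings. RBL2 (p130), the pocket protein of resting cells, was at 7.60, 13.1 and 12.8 and 10.6 in CR, 12.6 and 10.8 in PR and 10.5 in DR cells FPKM, with means of 11.2 ± 3.09 (SD, n = 3) and 11.1 ± 0.963 (SD, n = 4) and no call (-0.14 ± 0.21 (SE, adjusted p = 0.647 by edgeR)). The small differences of RBL2, CDC25B, E2F3 and TFDP2 changed sign under upper-quartile scaling.

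Of the 4 MuvB core genes 2 fell. LIN9 was at 6.40, 6.09 and 3.59 FPKM in parental libraries and 1.13 in CR, 1.87 and 1.01 in PR and 0.969 in DR cells, a log2 fold change of -2.18 ± 0.28 (SE, adjusted p = 0.000592 by edgeR). LIN54, the subunit that contacts the CHR element, was at 3.31, 2.62 and 2.49 FPKM and 1.37 in CR, 1.77 and 1.21 in PR and 1.32 in DR cells, with no overlap and a log2 fold change of -1.06 ± 0.20 (SE, adjusted p = 0.00353 by edgeR). LIN52 was not called, with overlapping groups and a log2 fold change of -0.54 ± 0.22 (SE, adjusted p = 0.0856 by edgeR). LIN37 was higher in every drug-resistant library, at 7.19 in CR, 7.99 and 10.7 in PR and 6.70 in DR cells against 4.71, 5.75 and 6.07 FPKM in parental cells, yet was not called (0.42 ± 0.21 (SE, adjusted p = 0.152 by edgeR)).

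The partners that MuvB takes up in cycling cells fell about as far as the mitotic cyclins. MYBL2 (B-MYB) was at 69.4, 47.6 and 43.7 FPKM in the parental libraries and 4.47 in CR, 11.6 and 2.38 in PR and 3.95 in DR cells, a log2 fold change of -3.39 ± 0.46 (SE, adjusted p = 0.000748 by edgeR). FOXM1 was at 28.6, 16.8 and 19.0 FPKM in parental and 1.55 in CR, 5.26 and 1.02 in PR and 1.44 in DR cells, a log2 fold change of -3.36 ± 0.50 (SE, adjusted p = 0.00123 by edgeR). In both genes PR library 1 was the highest and PR library 2 the lowest of the drug-resistant libraries.

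Ratios within a library, which do not depend on the scaling between libraries, showed the unequal change. The FPKM of CCND1 over that of CCNB1 was 0.114 to 0.210 in parental and 2.97 to 15.0 in drug-resistant libraries. CCND1 over CDK4 went from 0.215 to 0.355 up to 1.55 to 2.85. E2F1 over E2F4 was 0.356 to 0.607 in parental and 0.0962 to 0.332 in drug-resistant libraries. RBL2 over RBL1 was 1.10 to 2.74 against 4.88 to 8.42, E2F3 over E2F2 was 1.89 to 2.06 against 7.61 to 29.7, and LIN37 over LIN9 was 0.735 to 1.69 against 4.26 to 10.7. None of these 6 ratios overlapped between the groups. Each of the 6 sets a gene called lower against a gene that was higher or not called. Their separation thus restates those calls and is no separate evidence. CCNB1 over CDK1, 2 partners that both fell, did overlap, at 1.27 to 1.93 and 0.899 to 2.40. Other pairs that both fell overlapped too. CCNB1 over CCNA2 was 5.10 to 5.14 and 3.87 to 8.78, and CKS1B over CKS2 was 0.892 to 1.19 and 1.10 to 1.66.

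The drug-resistant libraries were not alike. PR library 1 was the highest of the 4 in 29 of the 43 genes, beside 28.05% of all genes, and parental library 3 was the lowest of the parental ones in 35, beside 37.6%. PR library 1 was more than 2-fold above PR library 2, on the log2(FPKM + 1) scale, in 8 of the 43 genes. The log2 differences were 1.90 for MYBL2, 1.90 for CDK1, 1.77 for CCNA2, 1.63 for FOXM1, 1.62 for PKMYT1, 1.601 for CCNB2, 1.41 for CCNB1 and 1.26 for SKP2. Over all genes, 146 of 20824 differed that much between the PR libraries. Pairs of parental libraries differed over 2-fold in 1 to 4 of the 43 genes, beside 345 to 784 of the 20824. Within the libraries of one form of name, PR library 1 against parental libraries 1 and 3, and within the other, the CR, DR and second PR library against parental library 2, the difference had the same sign in 40 of the 43 genes. The other 3 were CCNE1, CDC25B and RBL2, none of which was called. For the 25 genes with every drug-resistant library below every parental one, and the 5 with every one above, the same sign was fixed in advance. The share over all genes was not computed, so the count is a description. With the form of name as a covariate, 28 of the 43 genes were called, beside 4967 of all 19902 genes (25.0%).

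**Figure D4:**
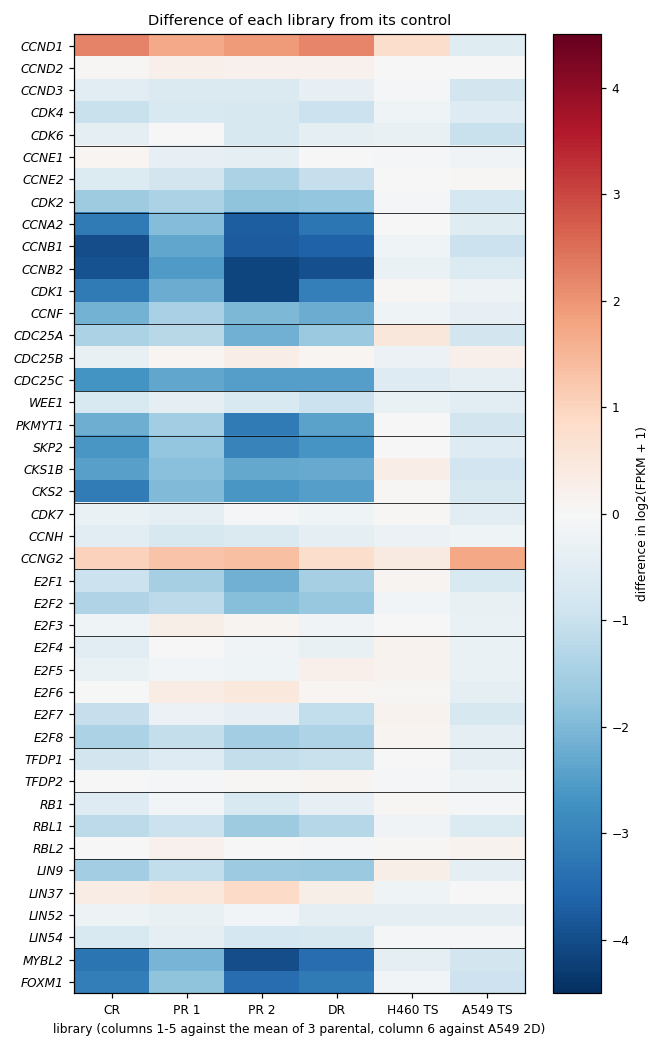
Colour gives the difference in log2(FPKM + 1) of each gene (rows, ordered by role) in the CR, PR, DR and H460 TS libraries from the mean of the 3 parental libraries, and in the A549 TS library from the A549 2D library. Dark blue cells of the mitotic genes are palest in PR library 1, and the 2 TS columns are paler, with CCNG2 in A549 TS cells the strongest of their colours.

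Paclitaxel, which stabilizes microtubules, was the drug with 2 libraries, and PR cells were compared with parental cells on their own. Of the 43 genes 26 were lower and 3, again CCND1, CCNG2 and, at very low levels, CCND2, were higher. Of the 19430 genes tested 10.7% were lower and 17.4% higher (28.1% called). CCND2 passed the filter on counts only through its PR libraries, where it was high, so its call is again a description. With the form of name as a covariate, CCND2 and CCNG2 were not called (adjusted p = 0.0567 and 0.0527 by edgeR). With upper-quartile scaling the split over all genes moved from 3387 higher and 2079 lower to 4274 and 1355, and 22 of the 43 were lower. This comparison shares its 5 libraries with the one above and is no separate evidence. In PR cells the log2 fold change was -3.64 ± 0.60 (SE, adjusted p = 0.00379 by edgeR) for CCNB2, -3.74 ± 0.42 (SE, adjusted p = 0.00123 by edgeR) for CDC25C and 1.56 ± 0.32 (SE, adjusted p = 0.00812 by edgeR) for CCND1. E2F7 and RB1 were not called against parental cells, at -0.66 ± 0.26 (SE, adjusted p = 0.0918 by edgeR) and -0.65 ± 0.29 (SE, adjusted p = 0.115 by edgeR). The count rested on both libraries: 21 of the 43 genes were called without PR library 1 and 14 without PR library 2.

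PR cells were also set against CR and DR cells, since cisplatin and doxorubicin act on DNA. By edgeR none of the 43 genes was called, and none of all 19902 genes tested was (0.0%), with 2484 genes at an unadjusted p under 0.05. By DESeq2 416 genes were called and by limma 1091. Among the 43, the genes at an unadjusted p under 0.05 were E2F7 and E2F1. E2F7 was at 3.16 and 2.92 FPKM in the PR libraries against 1.43 in CR and 1.31 in DR, a log2 difference of 0.97 ± 0.25 (SE, adjusted p = 0.187 by edgeR), and DESeq2 called it (adjusted p = 0.0313). E2F1 was at 4.96 and 2.77 FPKM in PR against 7.55 in CR and 4.94 in DR, a log2 difference of -0.87 ± 0.32 (SE, adjusted p = 0.316 by edgeR). CCNB1 differed between the drugs by 0.83 ± 0.46 (SE, adjusted p = 0.496 by edgeR), which was less than the 1.41 between the 2 PR libraries on the log2(FPKM + 1) scale.

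CR and DR cells had 1 library each and were described by size alone, on the log2(FPKM + 1) scale. In CR cells 19 of the 43 genes were more than 2-fold below the parental mean and 2, CCND1 and CCNG2, above it, beside 4.29% and 3.55% of all 20824 genes compared. In DR cells 22 were below and CCND1 was above, beside 3.45% and 3.5%. The lowest log2(FPKM + 1) differences were -3.99 for CCNB1 in CR and -3.95 for CCNB2 in DR cells, and CCND1 was at 2.25 and 2.21. CCNE2, E2F1 and TFDP1 passed the cut-off in DR cells and not in CR cells, with CR differences of -0.63, -0.96 and -0.82. CCNG2 in CR cells, at 1.02, was just past it.

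The genes around these 43 were examined in lists. All 20 listed G1/S targets of E2F were lower in drug-resistant cells, with a median log2 fold change of -2.29, among them MCM2 at -2.30 ± 0.24, RRM1 at -2.001 ± 0.21 and MCM7 at -2.41 ± 0.25. MCM2 and MCM7 are subunits of the replicative helicase and RRM1 is a subunit of ribonucleotide reductase. All 20 listed G2/M targets of DREAM were lower as well, with a median of -3.73, among them AURKA at -3.50 ± 0.31, KIF23 at -2.44 ± 0.24 and NEK2 at -4.25 ± 0.44. AURKA and NEK2 are mitotic kinases and KIF23 is a kinesin of cytokinesis. Of all genes tested 14.3% were lower. These lists were chosen with results of these samples known, so their direction is not independent evidence.

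The listed subunits and regulators of the anaphase-promoting complex, the ubiquitin ligase of mitotic exit, were lower in 8 of 19, and 11 were not called. Among the 8 were its E2 enzymes UBE2S and UBE2C and its inhibitor FBXO5, with UBE2S at -2.36 ± 0.28, UBE2C at -3.69 ± 0.56 and FBXO5 at -2.31 ± 0.34. Of the 5 CDK inhibitors tested, CDKN1A (p21) was at 33.0, 25.3 and 20.7 FPKM in parental libraries and 654 in CR, 343 and 498 in PR and 404 in DR cells. Its log2 fold change was 4.05 ± 0.32 (SE, adjusted p = 0.000122 by edgeR), while CDKN2C and CDKN2D fell, with CDKN2C at -2.38 ± 0.22 and CDKN2D at -1.01 ± 0.30. Of the SCF ligase genes 2 of 5 were lower (CUL1 at -0.71 ± 0.18 and RBX1 at -0.73 ± 0.23), and of the cyclins and CDKs of transcription 2 of 12 were higher (CCNL2 at 1.27 ± 0.19 and CDK19 at 0.94 ± 0.23) and 2 lower, among them CDK8 (CDK8 at -0.70 ± 0.17). The other MYB and MuvB genes were lower in 3 of 3 (MYBL1 at -2.55 ± 0.38, RBBP4 at -0.59 ± 0.17 and MYB at -2.46 ± 0.77), MYB from under 0.3 FPKM in each parental library. Over all genes the median log2 fold change was 0.11, and 14.3% were called lower and 18.2% higher. The counts for the cyclins and CDKs of transcription were near these shares, so they are no result about that list.

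TS cells were compared with 2D cells to see whether growth unattached changed the same genes. Over both lines, with the line as a covariate, none of the 42 genes that could be tested was called, by edgeR or by DESeq2, and CCND2 had too few counts. Of all 18488 genes tested 35 were called by edgeR (0.189%, of which 0.146% higher and 0.0433% lower) and 537 by DESeq2. The gene with the lowest p, the only one of the 42 at an unadjusted p under 0.05 by edgeR, was CDK6, at 4.37 in H460 TS against 7.54, 5.14 and 5.01 in parental cells, and 2.82 in A549 TS against 6.60 in 2D cells, in FPKM, with a log2 fold change of -0.71 ± 0.29 (SE, adjusted p = 0.629 by edgeR).

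Levels in the H460 TS library fell between the lowest and highest parental value in 33 of the 43 genes, beside 58.2% of all genes, above it in 3 and below it in 7. Above were CCND1, at 38.2 FPKM against a parental maximum of 33.0, E2F6 and LIN9. Below were CDK6, CCNB2, CCNF, CDC25C, WEE1, LIN52 and MYBL2, of which WEE1 was at 5.25 FPKM against a parental minimum of 6.48 and MYBL2 at 39.5 against 43.7. None of the 43 differed more than 2-fold from the parental mean on the log2(FPKM + 1) scale, beside 1.12% of all genes higher and 1.17% lower. CCNB1, CDK1 and FOXM1, which fell in drug-resistant cells, were inside the parental range, at 110.3, 82.0 and 19.2 FPKM.

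A549 TS cells were below A549 2D cells in 37 of the 43 genes and above in 5, beside 49.0% of all genes below. CCND2 was at 0 in both. On the log2(FPKM + 1) scale no decrease reached 2-fold, the farthest being CDK6, from 6.60 to 2.82 FPKM, a difference of -0.99, CCNB1, from 112.9 to 57.4, -0.97, and FOXM1, from 31.6 to 16.1, -0.93. CCNG2, from 0.530 to 4.11 FPKM, a difference of 1.74, was the one gene past 2-fold on this scale, beside 3.92% of all genes higher and 1.82% lower. By the ratio of the FPKM values themselves, which the added 1 shrinks at low levels, CDK6, CDC25A, from 4.72 to 2.22 FPKM, and E2F7, from 3.27 to 1.62, were also past 2-fold, downward. The test of whether TS culture acted differently in A549 than in H460 cells called none of 42 genes by edgeR or DESeq2, beside 0.487% of all genes tested by edgeR, 0.389% higher and 0.0974% lower. At an unadjusted p under 0.05 there were 0 of the 42 by edgeR and 1 by DESeq2, and the spread in this test comes from the 3 parental libraries alone. For CCNG2 the difference between the responses was 2.54 ± 1.21 (SE, adjusted p = 0.65 by edgeR), and without parental library 1 it was called (adjusted p = 0.032 by edgeR).

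**Figure D5:**
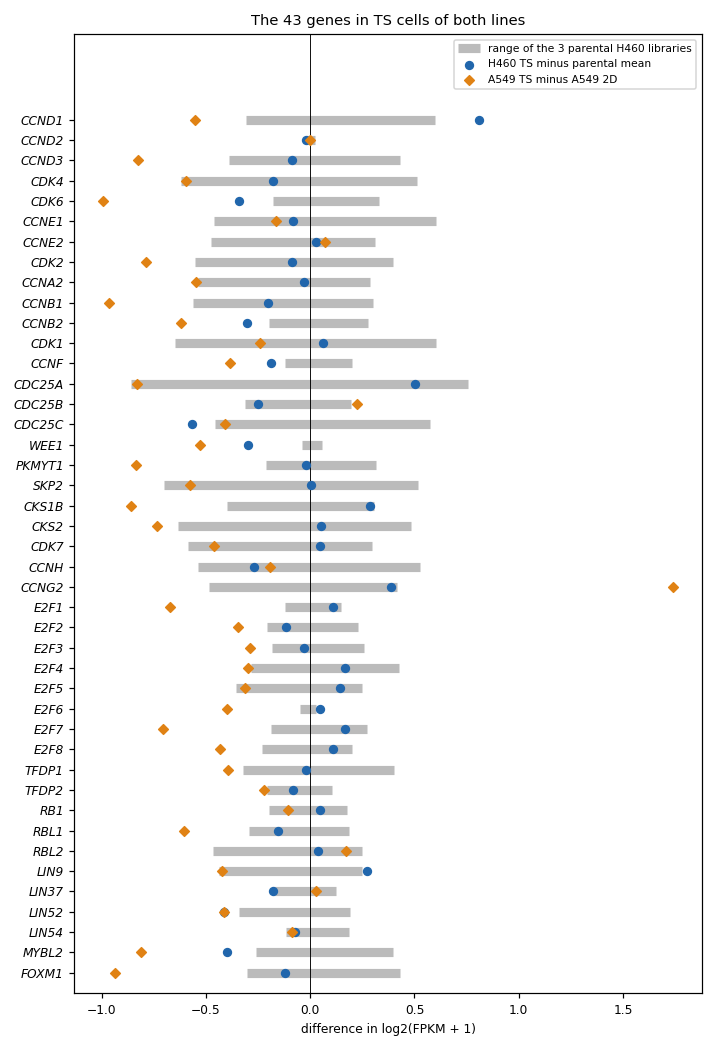
For each of the 43 genes the grey bar spans the 3 parental H460 libraries around their mean, on the log2(FPKM + 1) scale, with the H460 TS library as a blue circle and the difference of A549 TS from A549 2D cells as an orange diamond. Most circles lie on the grey bars, most diamonds lie left of 0, and CCNG2 in A549 cells stands alone at the right.

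The untreated lines themselves differed over 2-fold in 5 of these genes, a share near that of all genes. A549 2D cells were more than 2-fold above the H460 parental mean in CCND1 (1.75 on the log2(FPKM + 1) scale), CCND3 (1.51) and CDC25B (1.08), and more than 2-fold below it in SKP2 (-1.70) and CCNH (-1.10). Over all genes 7.02% were above and 4.86% below. CCND1, at 74.1 FPKM in untreated A549 cells, was thus about as abundant there as in the drug-resistant H460 libraries, while CCNB1 was at 112.9 FPKM and CDK1 at 41.8.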

How the data were processed

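Poly(A) RNA of 10 libraries prepared with a TruSeq kit was sequenced by the authors. The submitters' processing notes name GRCh38, bcl2fastq 1.8.4, Trimmomatic, HISAT2 2.1.0 and StringTie 2.1.3b, without their settings, and how reads shared between genes were counted is not given in the sources used here. Deposited by the authors for each gene and library were whole-number read counts, not normalized, and FPKM values, in which the authors divided by transcript length and library size. TPM values deposited by the authors were a near-constant multiple of FPKM within a library and were not tested. The table holds 46427 genes and no comparison columns.

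Counts were tested with the quasi-likelihood test of edgeR 4.0.16 in R 4.3.3 with TMM scaling, for genes with at least 10 counts in at least 2 of the libraries fitted, Benjamini-Hochberg adjustment over all genes tested and a threshold of 0.05. SE is the log2 fold change divided by the square root of the F statistic. Fitted were 4 drug-resistant against 3 parental libraries, taking the drugs as samples of drug-resistant cells, so that the spread includes differences between drugs, 2 PR against 3 parental libraries, PR against CR and DR libraries, TS against 2D libraries with the cell line as a covariate, and the TS responses of the lines. Groups with 1 library were described with no test by log2(FPKM + 1) differences and the study's 2-fold cut-off, and this scale understates changes at low FPKM. Alternatives were other scalings, filters on counts or on an FPKM of 1, DESeq2 1.42.0, limma 3.58.1 on log2(FPKM + 1) and log2(FPKM + 0.1), the form of library name as a covariate, the replicate number as a block, and each library left out. With between 59499787 and 89541774 counts per library, precision was limited mostly by the number of libraries. Samples were grouped by their titles. The fits were tested on simulated counts with 200 changed genes and the same relative spread set for every gene. That setting is simpler than these data, so it does not give the rate of false calls here.

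The 43 genes and the gene lists were chosen with earlier results of these data known. Named with values in each library are the 2 genes of each role with the lowest p in drug-resistant cells and those higher there or called in another test, and of the pathway lists up to 3 genes with the lowest p. Some further genes are given for comparison, and these were chosen after their values were seen. A leukocyte marker is not reported here and was left out of its list. The other tools were Python 3.11.15 with numpy 2.4.6, pandas 2.3.3 and, for figures, matplotlib 3.10.9.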

Additional observations from a re-analysis of the deposited data

Results flagged for a closer look

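In the 4 drug-resistant libraries, CCNB2 stood at 6.03 FPKM in PR library 1, far above the other 3, which were between 1.32 and 1.69 FPKM. RBL2 was also highest in PR library 1, at 12.6 FPKM, with the others between 10.5 and 10.8. For each, on the log2(FPKM + 1) scale, the gap to the next library was larger than Dixon's critical value for 4 samples allows. As a share of the range the gap was 0.865 for CCNB2 and 0.830 for RBL2, which passed only narrowly. Chance flags about 1 in 20 groups, and 43 genes were examined. CCNB2 stayed below its parental range of 34.5 to 48.4 FPKM in every drug-resistant library, and RBL2 lay inside its parental range of 7.60 to 13.1. The cause was not tested.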

How the results depend on the processing

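The number of the 43 genes called in drug-resistant cells was 31, and between 27 and 32 under the other settings, leave-outs included (27 to 32). CCND3, RB1, CCNH, E2F7, CCND2, CCNE2 and CCNG2 lost their call under at least 1 of them, and the others of the 31 kept theirs under each setting run. CCND2 has no value with the FPKM filter. The number of all genes called was 6465, and 4279 to 6601 with 1 library left out, lowest without parental library 2. Among genes that were not called, the log2 fold change turned positive for CCNE1 without parental library 1 (0.028; -0.63 to 0.028 over the leave-outs), and for CDC25B without scaling (0.0032), with upper-quartile scaling (0.0900), the FPKM filter (0.019), limma at either pseudocount (0.035 and 0.036) and the name form as a covariate (0.043). It turned for E2F3 with upper-quartile scaling (0.034), limma (0.015 and 0.016) and without parental library 1 (0.0065, from -0.25 over the leave-outs), for TFDP2 without scaling (0.00044), with upper-quartile scaling (0.089), the FPKM filter (0.027), limma (0.026 and 0.036) and without parental library 3 (0.025, from -0.22), and for RBL2 with upper-quartile scaling (0.027), limma (0.029 and 0.035) and without parental library 3 (0.0055, from -0.37). These lie close to 0, and the cause was not tested.

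In PR against parental cells 29 of the 43 genes were called, and 14 to 29 with 1 library left out, lowest without PR library 2 and 21 without PR library 1, where the lone PR sample is assumed to vary like the parental ones. Over all genes 5466 were called, 2742 with the FPKM filter, and 695 to 6701 with 1 library left out, with 695 without PR library 2, 1485 without PR library 1 and 3565 without parental library 2. Replicate numbers 1 and 2 are shared by parental and PR libraries, but nothing says that they mark a shared culture. The differences between libraries 1 and 2 of the groups correlated with r = 0.147 across 20824 genes. With the number as a replicate block, 32 of the 43 genes and 6644 of all genes were called, against 29 and 6701 in the same 4 libraries with no block.

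In PR against CR and DR cells DESeq2 called 1 of the 43 genes, E2F7, and the others none. Over all genes 0 were called, but 509 without a filter, 416 by DESeq2, 1091 and 1027 by limma at the pseudocounts of 1 and 0.1, and 0 to 67 with 1 library left out, 67 without parental library 1. In TS against 2D cells no setting called any of the 43 genes. Over all genes 35 were called, 19 with the FPKM filter, 537 by DESeq2, 8 and 20 by limma, and 6 to 340 with 1 library left out, with 6 without parental library 2, 10 without parental library 3, 205 without the H460 TS, 340 without the A549 2D and 328 without the A549 TS library. For the difference between the TS responses, 0 to 1 of the 43 genes were called with 1 library left out, CCNG2 without parental library 1. Over all genes 90 were called, 0 without a filter, 518 by DESeq2, 635 and 192 by limma, and 72 to 593 with 1 parental library left out, with 593 without parental library 1 and 146 without parental library 2. Leaving out any of the 3 other libraries leaves this difference without a contrast, so it could not be fitted. For single libraries, a pseudocount of 0.1 and each parental library alone as the control were added after the data had been seen. The 43 genes more than 2-fold apart numbered 17 to 23 in CR and 18 to 27 in DR cells, 0 to 2 in H460 TS cells, 1 to 3 in A549 TS cells and 3 to 7 in A549 2D cells against H460.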
